A study of Mus musculus with 12 samples.

Results

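The genes described are 10 markers that are used to recognise the cells from which fat cells form: Pdgfra, Pdgfrb, Dpp4, Pi16, Cd34, Ly6a, Zfp423, Icam1, F3 and Ebf2. They were taken as a list of names and found on the array by matching each probe's RefSeq accession to a mouse gene symbol. All 10 were on the array, with 14 probes between them, among 20887 named genes, and all 14 probes were well above background on all 12 arrays. The 10 genes are therefore also all among the 31453 genes and unnamed probes that entered the tests.

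The arrays measured total RNA of whole gonadal white fat from male C57BL/6N mice aged 59 to 67 days. There were 4 genotypes: wild type (WT), Gadd45a-/- (Gadd45a-KO), Ing1-/- (Ing1-KO) and the double mutant Gadd45a-/-;Ing1-/- (DKO), all bred from crosses of the 2 mutant lines. Gadd45a is a stress gene whose protein takes part in DNA repair and demethylation. The Ing1 protein reads methylated histone H3. Each genotype has 3 one-colour arrays, and each array holds pooled RNA of 3 mice, so 9 mice stand behind a genotype. The alleles are given as -/- with no tissue restriction, so an effect within fat and one that reached fat from elsewhere cannot be told apart. The RNA is of all cells of the depot, so fewer cells of a type and less RNA per cell cannot be told apart either.

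White fat grows and renews itself from progenitors that lie around its vessels and in its connective tissue. Progenitors that are far from commitment carry Dpp4 and Pi16 and lie in the interstitium, committed preadipocytes carry Icam1, and another stromal population that restrains fat formation carries high F3, which encodes tissue factor. Pdgfra, Cd34 and Ly6a (Sca-1) mark the progenitors as a whole, Pdgfrb marks progenitors and the mural cells of vessels, and Zfp423 and Ebf2 encode transcription factors of commitment: Zfp423 favours white over thermogenic fat, and Ebf2 favours the thermogenic programme. Several of these genes are active in other cells as well, such as Cd34 and Icam1 in endothelium and Dpp4 and Ly6a in lymphocytes.

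Ebf2 was the one marker that differed between genotypes past the test's threshold, and it was higher where Ing1 was missing. The call was lost, at a similar size (0.63, limma, adjusted p = 0.0806), when the 3 arrays highest in skeletal muscle transcripts were left out. All 6 arrays without Ing1 lay above all 6 arrays with it, by 0.70 ± 0.12 (SE) on the log2 scale, which is 1.62-fold. Between these arrays 16.6% of all genes passed, and 3.17% were higher on all 6 arrays without Ing1. The call for Ebf2 is therefore near the background and no result about the markers as a set. None of the other 9 markers passed in any of the 8 comparisons by its brightest probe, though dimmer probes of F3 and Zfp423 did. By their brightest probes, the general progenitor markers Pdgfra, Pdgfrb, Cd34 and Ly6a differed by 0.07 or less between arrays with and without Ing1, while a second Cd34 probe differed by 0.33 ± 0.13 and did not pass.

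Promoter sequences of 2 markers are shown because they hold a match to the EBF motif, which the family of Ebf2 binds, or to the motif of AP-1, a stress-responsive factor. They are the 250 bases before the start of the gene in RefSeq's table for the GRCm38.p6 assembly, written 5′ to 3′ in the direction of transcription, with matches in capitals. Dpp4 (chr2:62412232-62412481, minus strand) holds the EBF palindrome TCCCCAGGGA, whose first base is 115 bases before the start, and a TATAAA that begins 227 bases before it. F3 (chr3:121723287-121723536, plus strand) holds the AP-1 motif TGANTCA as TGAATCA, beginning 146 bases before the start, and as TGAGTCA, beginning 135 bases before it.
Dpp4: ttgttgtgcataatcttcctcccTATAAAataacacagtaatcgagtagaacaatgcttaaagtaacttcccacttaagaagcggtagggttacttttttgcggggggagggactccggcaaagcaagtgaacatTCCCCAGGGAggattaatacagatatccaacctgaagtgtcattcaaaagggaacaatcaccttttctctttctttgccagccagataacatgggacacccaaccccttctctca
F3: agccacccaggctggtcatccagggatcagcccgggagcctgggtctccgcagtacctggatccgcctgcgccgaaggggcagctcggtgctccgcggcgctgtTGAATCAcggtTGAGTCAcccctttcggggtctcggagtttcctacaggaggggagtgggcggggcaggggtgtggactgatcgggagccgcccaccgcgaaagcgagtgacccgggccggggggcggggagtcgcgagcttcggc

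In all, 7 of the 10 markers have an entry in that table, with 8 promoters, 2 of them for Zfp423. Both strands were searched for the EBF core CCCNNGGG and the EBF palindrome, which is that core with T before and A after. They were also searched for the NF-kappaB motif in the form GGGRNNYYCC only, for TGANTCA and for TATAAA. N is any base, R is A or G, and Y is C or T. Of all 32851 promoters of that length, 0.779% hold the palindrome, 11.8% the core, which lies inside the palindrome, 7.25% the NF-kappaB motif, 6.75% the AP-1 motif and 12.4% TATAAA. Besides the matches above, the second Zfp423 promoter holds the core as CCCGTGGG, beginning 28 bases before the start. The other 5 promoters hold none of the motifs searched, which says only that these letters are not in this window. A match is a run of letters and not a measured binding site.

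The Ing1 probe with the highest signal fell from 12.46 ± 0.04 (SD, n = 3) in WT to 9.39 ± 0.13 in Ing1-KO and 9.31 ± 0.25 in DKO, and was 12.56 ± 0.22 in Gadd45a-KO. Another Ing1 probe fell further, from 10.91 in WT to 4.07 in Ing1-KO and 4.30 in DKO. The dimmest Ing1 probe fell from 8.14 to 2.42 and 2.25, with 0 arrays above background in either mutant. These and all levels below are log2 of the array's processed signal after every array was brought to the same 75th percentile; they can be compared between genotypes for a probe, but not between probes. The Gadd45a probe was higher in the arrays labelled Gadd45a-KO (10.18 ± 0.10) and DKO (10.61 ± 0.02) than in WT (9.52 ± 0.24) and Ing1-KO (9.20 ± 0.12). Whether the deletion covers the target of that probe could not be established, so it does not check those labels. The arrays lie on 3 slides with 1 array of each genotype on each, and the replicate number equals the slide. The share of spots well above background ran from 58.2% to 68.1% of 59305, and WT replicate 2 was the dimmest array, with a median signal of 39.3 units against up to 68.8. Skeletal muscle transcripts were high on 3 arrays, replicate 1 of Ing1-KO, DKO and Gadd45a-KO, where a list of 10 muscle genes averaged 3.74, 2.37 and 1.29 above its mean over arrays, against -1.03 to -0.46 on the other 9.

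**Figure D1:**
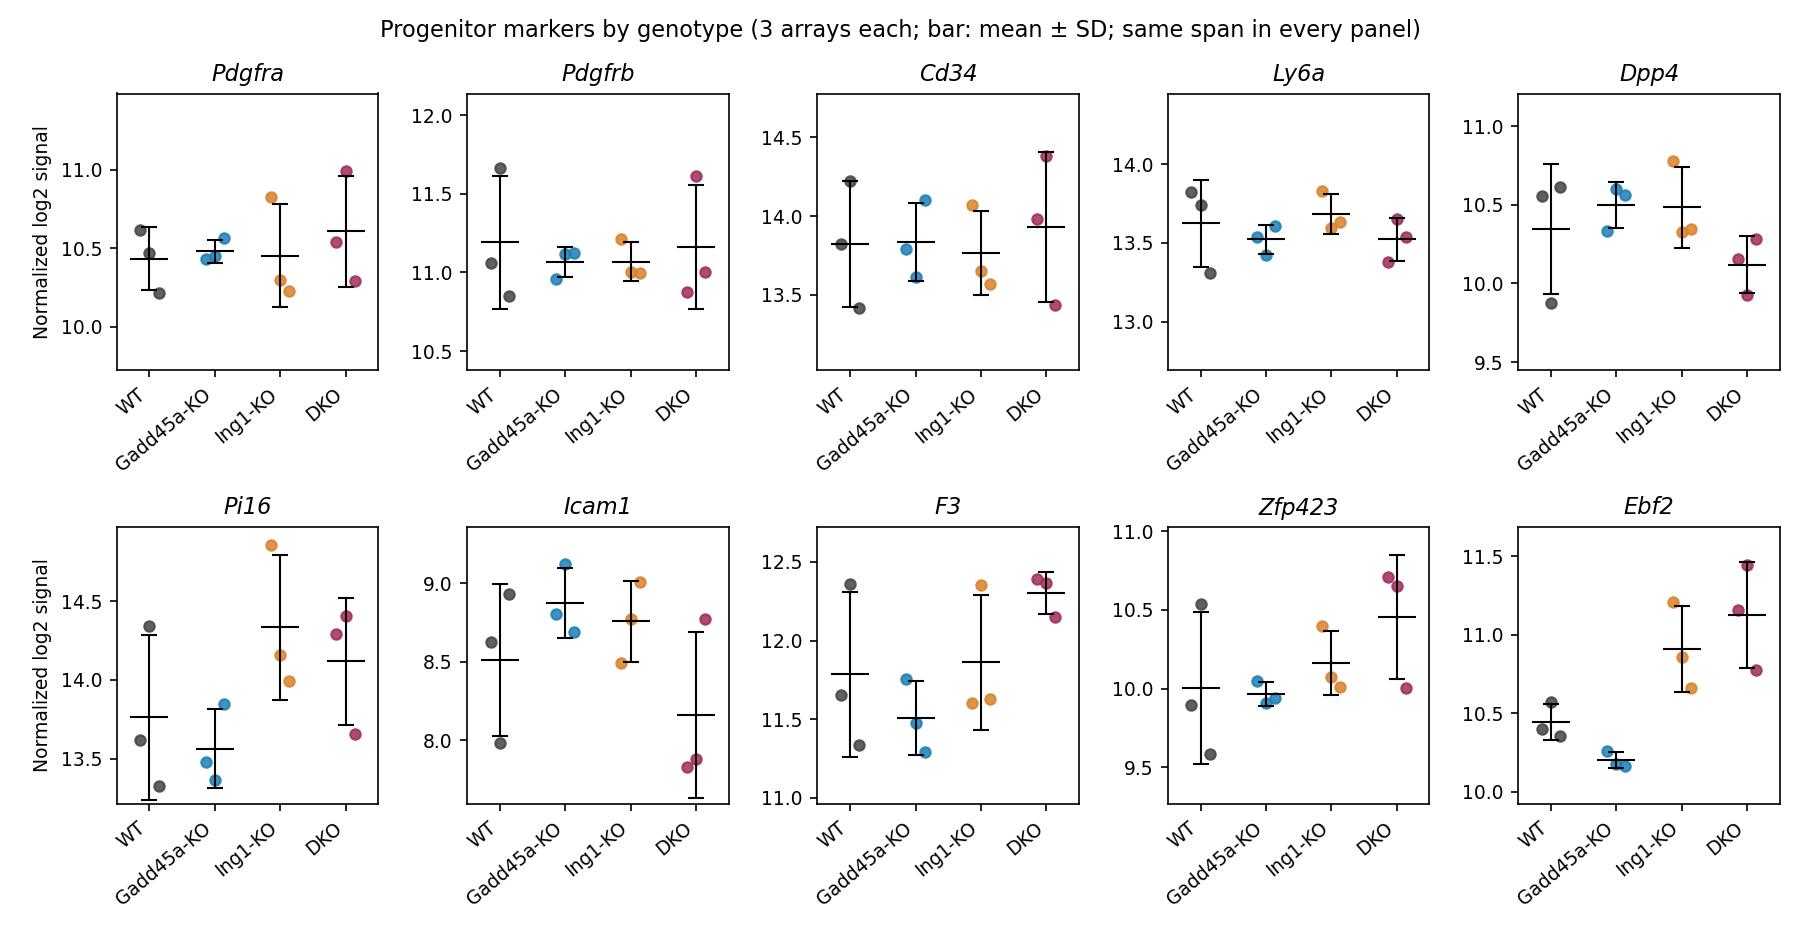
Normalized log2 signal of the brightest probe of each of the 10 markers (vertical axis, with the same span in every panel) on the 3 arrays of each genotype (horizontal axis). Dots are arrays in replicate order from left to right, and the bars give mean ± SD. For Ebf2 all Ing1-KO and DKO arrays (10.66 to 11.44) lie above all WT and Gadd45a-KO arrays (10.16 to 10.57), while the groups of Pdgfra, Pdgfrb, Cd34 and Ly6a overlap.

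Ebf2 encodes early B cell factor 2, a helix-loop-helix type regulator of the thermogenic gene programme. Its log2 signal was 10.40, 10.57 and 10.36 on the 3 WT arrays and 10.26, 10.18 and 10.16 on the Gadd45a-KO arrays. It was 11.21, 10.86 and 10.66 on the Ing1-KO arrays and 11.16, 11.44 and 10.78 on the DKO arrays. The lowest array without Ing1 thus exceeded the highest with it, and the Gadd45a-KO arrays lay below all 3 WT arrays, an order that 2.73% of all genes had.

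Averaged over both Gadd45a backgrounds, the Ebf2 level was 0.70 ± 0.12 (SE) higher without Ing1 (95% interval 0.43 to 0.96, limma's moderated test, adjusted p = 0.0076, 6 against 6 arrays). Ranked by p, Ebf2 stood 406th of 31453 genes, within the top 1.29%. In that comparison 16.6% of all genes passed, and 3.17% were higher on all 6 arrays without Ing1, so 1 called marker of 10 is near the background and no result about the markers as a set. Within slides 1, 2 and 3 the Ebf2 difference was 0.85, 0.78 and 0.46. It was larger than the spread between replicate arrays of any genotype, whose SD was 0.05 to 0.34.

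The same gene was 0.93 ± 0.17 (SE) higher in DKO than in Gadd45a-KO (1.90-fold, limma, adjusted p = 0.0121), where 15.6% of all genes passed. Within slides that difference was 0.90, 1.27 and 0.61. Without Gadd45a-KO replicate 3 it was 0.91 with an adjusted p of 0.0503. Against WT, Ebf2 in DKO was 0.68 ± 0.17 higher, which did not pass (limma, adjusted p = 0.0757), in a comparison where 0.184% of all genes did. That value passed without DKO replicate 3 (0.86, adjusted p = 0.0179) and with slide as a block (adjusted p = 0.0474). With 1 array left out it ran from 0.52 to 0.86, and over all alternatives tried its adjusted p reached 0.263 (limma).

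In Ing1-KO against WT the Ebf2 difference was 0.47 ± 0.17 (limma, adjusted p = 0.542), in a comparison where 0.00318% of all genes, a single one, passed. In Gadd45a-KO against WT it was -0.24 ± 0.17 (limma, unadjusted p = 0.184) and did not pass. There 0% of 31453 genes passed and 743 had an unadjusted p under 0.05. The DKO level was 0.22 ± 0.17 above that of Ing1-KO (limma, adjusted p = 0.945), a comparison in which again 0.00318% passed. The interaction sets the effect of losing Ing1 in Gadd45a-KO mice against that in mice with Gadd45a. For Ebf2 it was 0.46 ± 0.24 (limma, adjusted p = 0.721) and in that test 0% of all genes passed, with 1901 at an unadjusted p under 0.05. It was therefore not shown that the rise of Ebf2 differs between the 2 backgrounds. Averaged over both Ing1 states, loss of Gadd45a moved Ebf2 by -0.01 ± 0.12 (95% interval -0.28 to 0.25), where 0.00318% of genes passed.

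With the 3 arrays highest in skeletal muscle transcripts left out, an alternative added after the data were seen, Ebf2 was 0.63 higher without Ing1 and no longer passed (limma, adjusted p = 0.0806). Of all genes, 1 passed in that fit of 9 arrays. In DKO against Gadd45a-KO the value was then 0.94 (limma, adjusted p = 0.0947).

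**Figure D2:**
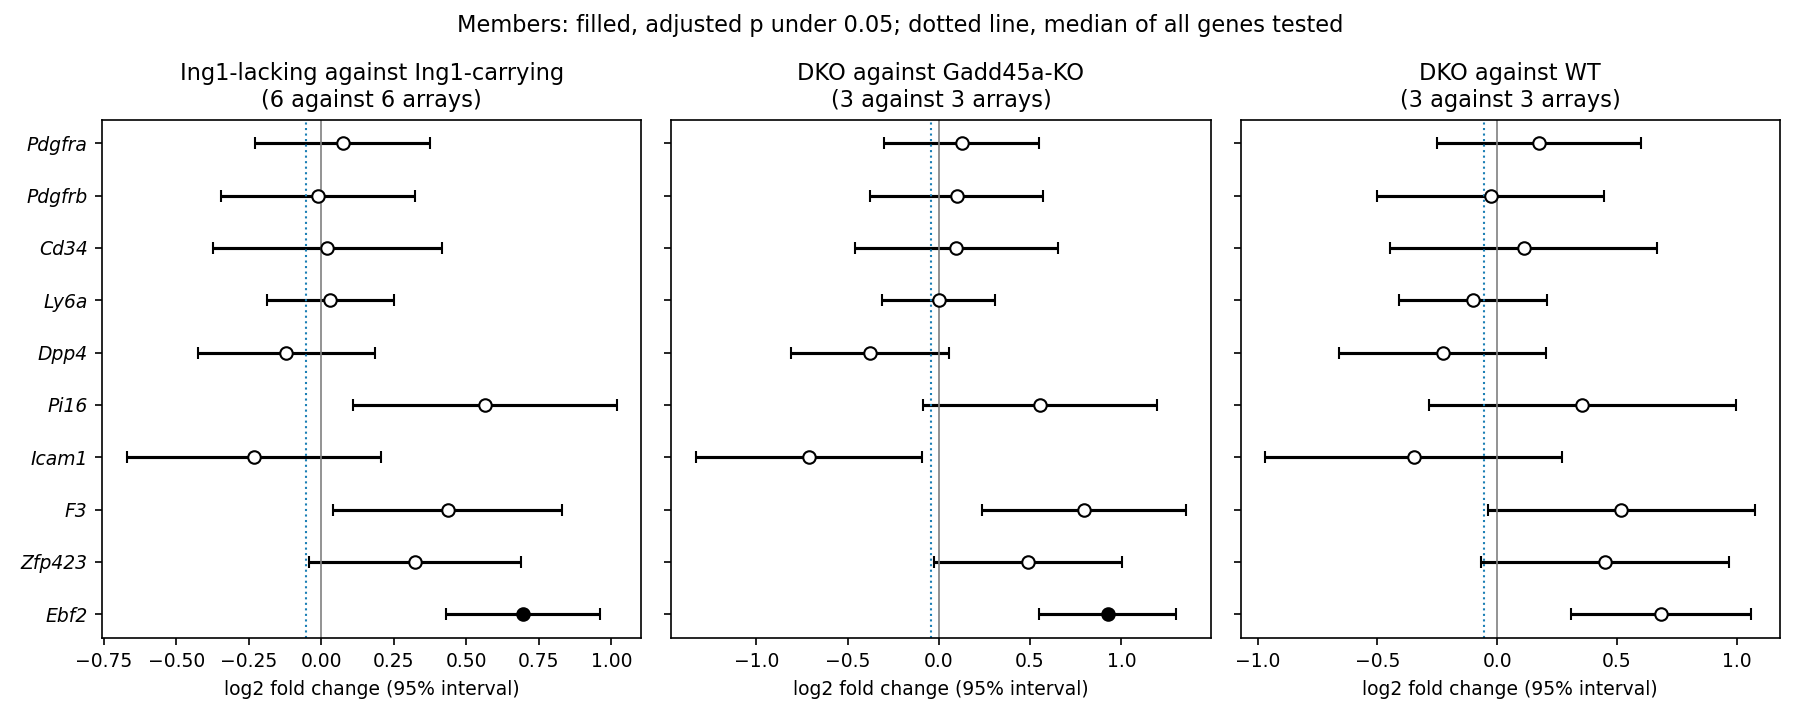
Log2 fold changes of the 10 markers (horizontal axis, points with 95% intervals) in 3 comparisons: arrays without against with Ing1, DKO against Gadd45a-KO, and DKO against WT. Filled points have an adjusted p under 0.05 over all genes tested, and the dotted line is the median of all genes. Ebf2 is filled in the first comparison (0.70) and the second (0.93), and the intervals of Pdgfra, Pdgfrb, Cd34, Ly6a and Dpp4 include 0 in all 3.

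F3, tissue factor, starts the extrinsic coagulation cascade and is the surface marker of the stromal cells that restrain fat formation. Its log2 signal was 11.66, 12.36 and 11.34 in WT, 11.75, 11.48 and 11.29 in Gadd45a-KO, 11.60, 12.36 and 11.63 in Ing1-KO and 12.39, 12.37 and 12.15 in DKO. The DKO arrays lay above all Gadd45a-KO arrays, and WT replicate 2 and Ing1-KO replicate 2 were as high as DKO. The difference between DKO and Gadd45a-KO was 0.80 ± 0.26 (SE) and just missed the threshold (limma, adjusted p = 0.0547), in a comparison where 15.9% of all genes were higher on all 3 DKO arrays. Within slides it was 0.64, 0.89 and 0.86, and with slide as a block it passed (adjusted p = 0.0231), as it did without WT replicate 2, WT replicate 3 or Ing1-KO replicate 2 (adjusted p = 0.0217, 0.0434 and 0.0467). With 1 array left out it ran from 0.69 to 0.92, and over all alternatives tried its adjusted p reached 0.184 (limma). Averaged over both backgrounds, F3 was 0.44 ± 0.18 higher without Ing1 (limma, adjusted p = 0.117). Without WT replicate 2, the dimmest array, that value was 0.58 with an adjusted p of 0.0221. This was the upper end: with 1 array left out the value ran from 0.31 to 0.58. Over all alternatives tried its adjusted p reached 0.239 (limma).

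A second, dimmer F3 probe read 8.07, 7.83 and 8.01 in WT, 8.03, 8.01 and 6.76 in Gadd45a-KO, 8.06, 8.73 and 8.16 in Ing1-KO and 8.80, 8.44 and 8.77 in DKO. On this probe all DKO arrays exceeded all WT and Gadd45a-KO arrays. By brightest probes, 9.08% of all genes had that order against WT and 15.9% against Gadd45a-KO. WT replicate 2 was the lowest of its group, whereas on the brighter probe it was the highest. When every probe was tested, the second probe was 0.71 ± 0.21 higher without Ing1 (limma, adjusted p = 0.0411) and 1.07 ± 0.30 higher in DKO than in Gadd45a-KO (limma, adjusted p = 0.0352). Both F3 probes thus gave a positive difference in these 2 comparisons, and they were on different sides of the threshold.

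Zfp423, the zinc finger factor of preadipocyte commitment, has 3 probes. The brightest read 9.89, 10.53 and 9.58 in WT, 10.05, 9.91 and 9.94 in Gadd45a-KO, 10.40, 10.08 and 10.01 in Ing1-KO and 10.71, 10.65 and 10.002 in DKO. The spread in WT (SD 0.48) came largely from replicate 2, and DKO replicate 3 lay near the Gadd45a-KO arrays. The difference was 0.32 ± 0.17 without Ing1 (limma, adjusted p = 0.203). Without WT replicate 2 it was 0.46 with an adjusted p of 0.0378. That was its upper end: with 1 array left out it ran from 0.22 to 0.46. Over all alternatives tried its adjusted p reached 0.55 (limma). In DKO against Gadd45a-KO it was 0.49 ± 0.24 (limma, adjusted p = 0.173), and 0.71 with an adjusted p of 0.044 without DKO replicate 3. There the values with 1 array left out ran from 0.36 to 0.71, and the adjusted p reached 0.443 (limma) over all alternatives.

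The other Zfp423 probes did not give the same picture. The second brightest was 0.53 ± 0.18 higher without Ing1 (limma, adjusted p = 0.0604) and 0.82 ± 0.25 higher in DKO than in Gadd45a-KO (limma, adjusted p = 0.0457). The dimmest differed by 0.02 ± 0.26 without Ing1 (limma, adjusted p = 0.964), and its WT arrays ran from 7.81 to 9.36. Where the 3 probes lie on the Zfp423 transcripts was not established here.

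**Figure D3:**
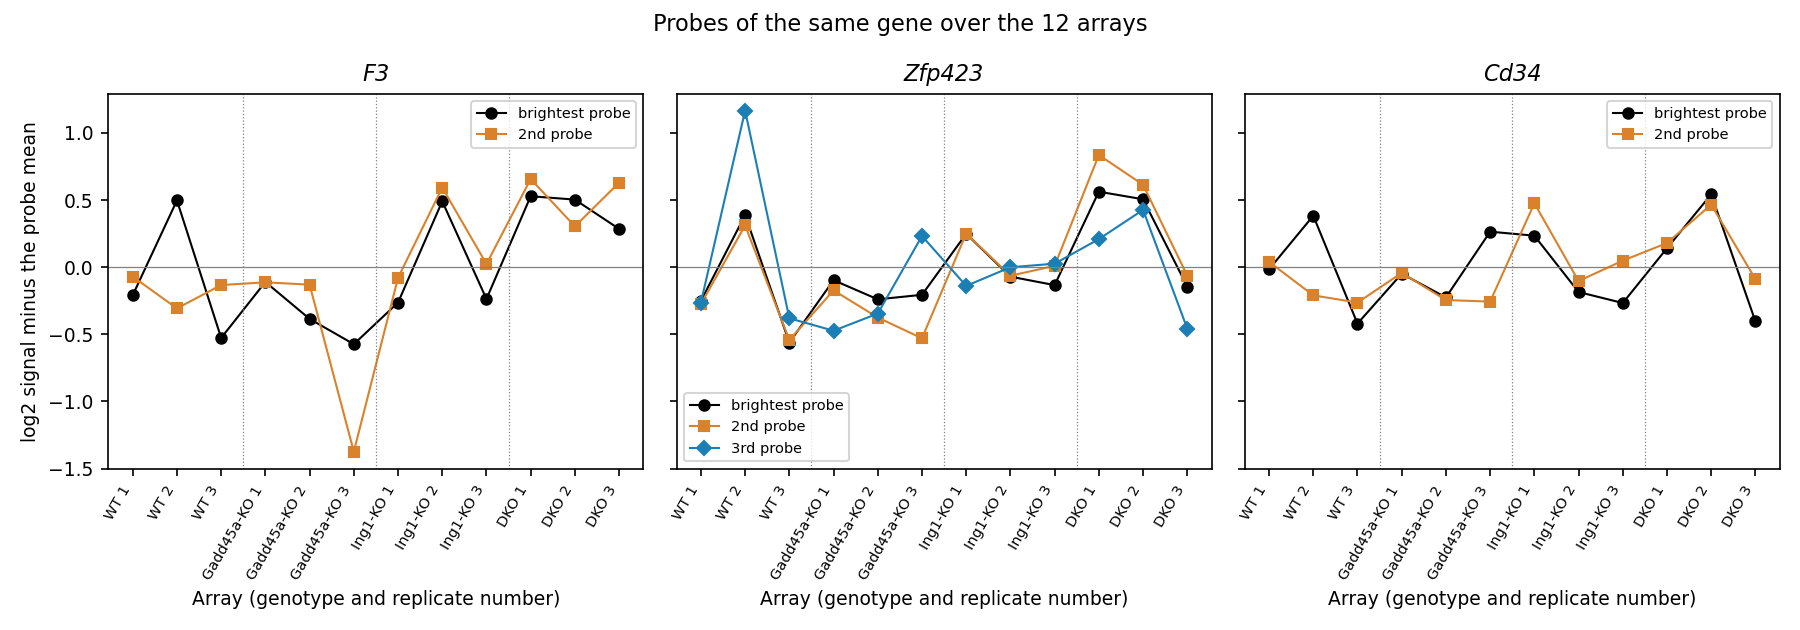
Log2 signal minus the probe's own mean (vertical axis) of each probe of F3, Zfp423 and Cd34 over the 12 arrays (horizontal axis, in order of genotype and replicate). Each line is 1 probe. The F3 probes part on WT replicate 2, where the bright probe read 12.36 and the dim probe 7.83, and the dimmest Zfp423 probe peaks on the same array, at 9.36.

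Pi16 and Dpp4 mark interstitial progenitors; Pi16 encodes a secreted peptidase inhibitor and Dpp4 a membrane dipeptidase. Pi16 read 13.62, 14.34 and 13.33 in WT, 13.48, 13.36 and 13.85 in Gadd45a-KO, 14.86, 14.16 and 13.99 in Ing1-KO and 14.29, 14.40 and 13.66 in DKO. Its highest array was Ing1-KO replicate 1, also the array highest in muscle transcripts, and WT replicate 2 stood among the arrays without Ing1. The level was 0.56 ± 0.21 (SE) higher without Ing1 (95% interval 0.11 to 1.02), which did not pass over all genes (limma, adjusted p = 0.082). It passed without WT replicate 2 (0.71, adjusted p = 0.0236) and without DKO replicate 3 (0.68, adjusted p = 0.0346). Without the 3 muscle-high arrays it was 0.37 (adjusted p = 0.384), and within slides it was 1.03, 0.43 and 0.24.

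Dpp4 did not follow Pi16. It read 10.55, 9.87 and 10.62 in WT, 10.33, 10.60 and 10.56 in Gadd45a-KO, 10.78, 10.32 and 10.35 in Ing1-KO and 10.15, 9.93 and 10.28 in DKO. All 3 DKO arrays were below all Gadd45a-KO arrays, where 21.6% of genes had that order, and below all Ing1-KO arrays, where 3.82% had it. The differences, -0.38 ± 0.20 and -0.36 ± 0.20, did not pass (limma, adjusted p = 0.209 and 0.944). WT replicate 2 was lower than any DKO array.

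Icam1 encodes the adhesion molecule that leukocytes bind through their beta-2 integrins, and on stromal cells of fat it marks committed preadipocytes. It read 8.62, 7.98 and 8.93 in WT, 8.81, 9.12 and 8.69 in Gadd45a-KO, 8.49, 8.77 and 9.00 in Ing1-KO and 7.83, 7.88 and 8.77 in DKO. DKO replicates 1 and 2 were low, and DKO replicate 3 lay with the other genotypes. The log2 fold change of DKO against Gadd45a-KO was -0.71 ± 0.28 and did not pass (limma, adjusted p = 0.105). Without DKO replicate 3 it was -1.02 and passed (limma, adjusted p = 0.0179). With 1 array left out it ran from -1.02 to -0.54, and over all alternatives tried its adjusted p reached 0.355 (limma). The interaction was -0.96 ± 0.40 (limma, adjusted p = 0.721).

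By their brightest probes, the 4 markers of the progenitor pool as a whole gave differences close to 0 between arrays without and with Ing1. For Pdgfra, the receptor of PDGF-A and PDGF-C, the value was 0.07 ± 0.14 (SE), with a 95% interval of -0.23 to 0.37. For Pdgfrb, the receptor of PDGF-B and PDGF-D, it was -0.01 ± 0.15, with an interval of -0.35 to 0.32. The sialomucin Cd34 gave 0.02 ± 0.18 (-0.37 to 0.41), and the surface antigen Ly6a 0.03 ± 0.10 (-0.19 to 0.25). No interval of these 4 probes reached beyond 0.41 on the log2 scale in either direction, and differences smaller than that are undecided.

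The genotypes overlapped for each of these 4 genes. Pdgfra read 10.61, 10.47 and 10.22 in WT, 10.43, 10.45 and 10.56 in Gadd45a-KO, 10.83, 10.30 and 10.23 in Ing1-KO and 10.54, 10.99 and 10.29 in DKO. Pdgfrb read 11.06, 11.67 and 10.85 in WT, 10.96, 11.12 and 11.12 in Gadd45a-KO, 11.21, 11.00 and 11.00 in Ing1-KO and 10.87, 11.61 and 11.00 in DKO. WT replicate 2 and DKO replicate 2 carried the highest Pdgfrb levels of the series. Cd34 read 13.82, 14.22 and 13.42 in WT, 13.79, 13.61 and 14.10 in Gadd45a-KO, 14.07, 13.65 and 13.57 in Ing1-KO and 13.98, 14.38 and 13.43 in DKO. The second, dim Cd34 probe was 0.33 ± 0.13 higher without Ing1 (limma, unadjusted p = 0.032, adjusted p = 0.113), so the bound above does not hold for both Cd34 probes. Ly6a had the smallest spread, with all 12 arrays between 13.31 and 13.83.

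**Figure D4:**
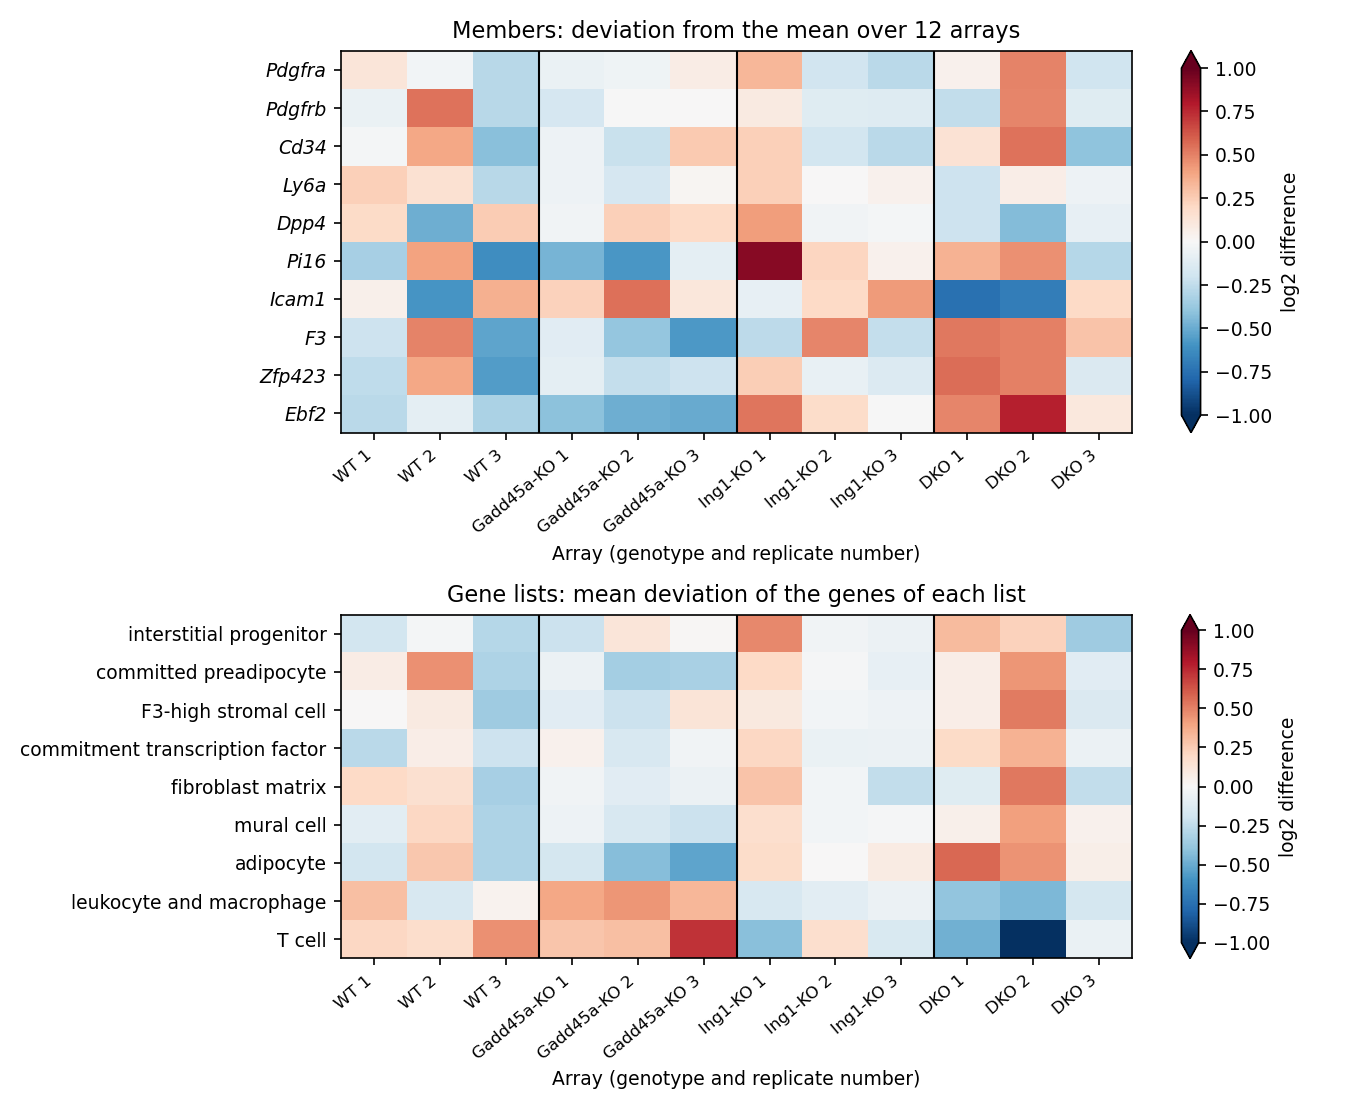
Deviation of each marker from its mean over the 12 arrays (upper panel) and mean deviation of the genes of 9 lists (lower panel), by array, in log2 units, with the colour scale ending at 1 in each direction. The Ebf2 row is lower on every one of the 6 arrays with Ing1 than on any of the 6 without, and the adipocyte row is high on DKO replicates 1 and 2 (0.58 and 0.45) where the T cell row is low.

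Over all 10 markers the median log2 fold change was 0.05 for Ing1 loss, against -0.05 for all genes tested, and 7 of 10 values were above 0, against 43.2% of all genes. In DKO against Gadd45a-KO the markers' median was 0.11 against -0.04 for all genes, and in DKO against WT it was 0.14 against -0.06. These medians were not stable in sign: with 1 array left out they ran from -0.01 to 0.15, from -0.06 to 0.31 and from -0.07 to 0.35. At an unadjusted p under 0.05 there were 3 markers for Ing1 loss, Pi16, F3 and Ebf2, where 33.2% of all genes reached it. Without WT replicate 2, 4 markers passed after adjustment, Pi16, Zfp423, F3 and Ebf2, where 22.9% of all genes did.

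Genes that share the cell states of the markers were examined as lists. The lists are of named markers from the literature and were chosen with earlier results of these data known. Their counts against all genes are therefore a description. Genes of a list that passed are named after their values were seen. For Ing1 loss the counts stand against 16.6% of all genes called, 6.6% higher and 10% lower, and an all-gene median of -0.05. For DKO against Gadd45a-KO they stand against 15.6% called, 6.39% higher and 9.17% lower. Without the 3 muscle-high arrays, no gene of any list passed as higher in either comparison, since the 1 gene called in each was lower. Of 12 further genes of interstitial progenitors, 0 passed for Ing1 loss, with 2 higher and 1 lower at an unadjusted p under 0.05 and a median of 0.19. The hyaluronan synthase Has1, which was not among those higher ones, was 0.70 ± 0.41 higher (limma, adjusted p = 0.26). Its signal was low, with genotype means from 3.93 to 4.91. The complement regulator Cd55 was -0.30 ± 0.13 (limma, adjusted p = 0.142). Of 8 genes of committed preadipocytes, 0 passed for Ing1 loss, with 3 higher and 1 lower at an unadjusted p under 0.05. In DKO against Gadd45a-KO, 3 of the 8 rose: the basement membrane collagen Col4a1 by 0.82 ± 0.25, the chemokine Cxcl14 by 1.07 ± 0.33 and the matrix protein Sparcl1 by 0.59 ± 0.18 (limma, adjusted p = 0.0467, 0.0467 and 0.0486), where 6.39% of all genes were called higher. The list did not move as one: 5 of its values were above 0 and 3 below, with 1 lower at an unadjusted p under 0.05 (limma). Icam1, the marker of these cells, was -0.71 in that comparison. In Gadd45a-KO against WT, 7 of the 8 list values were below 0, with a median of -0.37, and 0 passed, as for all genes. In DKO against WT 0 of the 8 passed, with a median of 0.13, where 0.184% of all genes passed. The rise of these genes was thus seen against Gadd45a-KO and not shown against WT.

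Among 7 genes of F3-high stromal cells, 1 rose and 1 fell without Ing1. The monooxygenase Fmo2 rose by 0.73 ± 0.18 (limma, adjusted p = 0.0209), and the sterol transporter Abcg1, which macrophages also carry, fell by 0.69 (SE 0.08, limma, adjusted p = 0.00195). Of 12 other transcription factors of commitment, 3 rose and 1 fell without Ing1, where 16.6% of all genes passed. Ebf3, a relative of Ebf2, rose by 0.45 ± 0.14 (limma, adjusted p = 0.0494), and Prdm16, a coregulator of the thermogenic programme, by 0.52 ± 0.15 (limma, adjusted p = 0.0377). Zfp467, a pro-adipogenic zinc finger factor, rose by 0.43 ± 0.10 (limma, adjusted p = 0.0186). Gata3, which holds preadipocytes back and is also a factor of T cells, fell by 0.55 (SE 0.11, limma, adjusted p = 0.0134). Ebf1, the third EBF gene of fat, was 0.10 ± 0.16 and did not pass (limma, adjusted p = 0.693), and neither did Zfp521, an antagonist of Zfp423 and EBF factors, at -0.21 ± 0.14 (limma, adjusted p = 0.303).

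Of 11 genes whose products bind a marker's product, 1 rose and 1 fell without Ing1, a share near the 16.6% of all genes. Pdgfd, a ligand of the receptor that Pdgfrb encodes, rose by 0.72 ± 0.19 (limma, adjusted p = 0.0287), and F10, the coagulation factor that tissue factor's complex activates, fell by 0.71 (SE 0.20, limma, adjusted p = 0.0315). In DKO against Gadd45a-KO, 1 rose and 3 fell, where 15.6% of all genes passed. Pdgfd rose by 1.22 ± 0.27 there, and Itgal and Itgb2, the subunits of the ICAM1 receptor LFA-1, fell by 0.97 (SE 0.29) and 0.82 (SE 0.23). The other PDGF ligands Pdgfa, Pdgfb and Pdgfc were 0.06 ± 0.08, 0.07 ± 0.18 and 0.38 ± 0.14 without Ing1 and did not pass.

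Markers of other cells moved in the same comparison as Ebf2. Of 14 adipocyte genes, 5 rose without Ing1, Lep, Cd36, Lipe, Lpl and Plin1, with a list median of 0.46, where 6.6% of all genes were called higher and the all-gene median was -0.05. Lep, the hormone leptin, rose by 0.88 ± 0.17. The mean deviation of the adipocyte list ran from -0.53 to 0.27 on arrays with Ing1 and from 0.00 to 0.58 on arrays without it. Of 9 leukocyte and macrophage genes, 4 fell, among them Cx3cr1, a chemokine receptor of monocytes, by 1.03 (SE 0.11), with a list median of -0.45, where 10% of all genes were called lower. That list's mean deviation ran from -0.16 to 0.44 on arrays with Ing1 and from -0.45 to -0.06 without. Of 8 T cell genes, 6 fell, with a list median of -0.71 and a mean deviation of 0.17 to 0.72 with Ing1 and -1.19 to 0.17 without. These are averages over both Gadd45a backgrounds. In Ing1-KO against WT, where 0.00318% of all genes passed, 0 genes of these lists did. Their medians there were 0.16, -0.16 and -0.41. In DKO against Gadd45a-KO 8 adipocyte genes rose, where 6.39% of all genes did. There 5 leukocyte and 7 T cell genes fell, where 9.17% of all genes did. In Gadd45a-KO against WT all 14 adipocyte values were below 0, and 0 passed. For the interaction 0% of all genes passed. Ebf2 is itself active in the adipocyte lineage, and the part of these cell shares in its rise was not tested.

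Of 19 fibroblast matrix genes, 1 rose and 1 fell without Ing1, with a median of 0.08: the dermatopontin gene Dpt by 0.63 ± 0.17, and Thy1, which T cells also carry, fell by 0.68 (SE 0.13). Of 10 mural cell genes, 2 rose, Rgs5 by 0.67 ± 0.18 and Mcam by 0.38 ± 0.10, and of 10 endothelial genes, 1 rose, the angiopoietin receptor gene Tek by 0.72 ± 0.17. In that comparison 16.6% of all genes passed, 6.6% as higher and 10% as lower. The fibroblast, mural and endothelial counts are too small to be read as results about these lists. Of 4 mesothelial genes tested, 1 rose, Lrrn4, and the defining genes Msln, Upk3b, Wt1 and Upk1b were below the filter. None of 10 skeletal muscle genes passed (limma), and 0 of them had an unadjusted p under 0.05. Their median was nevertheless 0.82, with 8 of 10 values above 0, and the list was high on single arrays, as given above. Muscle transcripts were therefore not shown to be balanced between arrays with and without Ing1. All 7 genes of the epididymis, which touches the gonadal depot, were below the filter.

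The named genes whose profile over the 12 arrays was most like a marker's were found by Pearson's correlation over 15101 genes. Nearest to Ebf2 were Thrb, the thyroid hormone receptor beta gene, at 0.98, then Zbtb20 and Peli2, both also at 0.98. Nearest to F3 was Pdk4, a kinase that restrains pyruvate oxidation, at 0.96, and nearest to Pi16 was Igsf1 at 0.97, with Pcolce2, which is in the interstitial progenitor list, at 0.93. Nearest to Pdgfrb were Nepn at 0.96, the elastin gene Eln at 0.94 and Pdgfb, a ligand gene, at 0.93. Nearest to Cd34 were Kitl, the stem cell factor gene, at 0.98, Ltbp1 at 0.97 and Ackr1 at 0.96, and nearest to Pdgfra was Abca9 at 0.96. Zfp423 was most like Plpp2 and Cavin1 (both 0.98), Icam1 most like Kcnq5 (0.97), Dpp4 most like Rbm17 (0.92) and Ly6a most like Prkab2 (0.86). These are the highest values of all genes compared over only 12 arrays in 4 genotypes, which share slides. Each array is a separate pool of 3 mice, and the correlations are given as a description.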

How the data were processed

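Gonadal fat RNA of 4 genotypes was measured on 12 arrays. The scanner files as deposited hold intensity values from Feature Extraction 10.7.3.1, per the file headers; the software had subtracted background and removed trends within each array. A deposited table of log2 values, for which the submitters' processing notes name limma 3.26.9, served as an alternative. The log2 processed signal, averaged over the unmarked spots of a probe, was shifted to a common 75th percentile. Probes well above background on at least 3 arrays were kept, and the brightest probe of a gene was used. Means of 4 genotypes were fitted in limma 3.58.1 under R 4.3.3 with an intensity trend and robust moderation, with 8 residual degrees of freedom, and Benjamini-Hochberg adjustment was made over 31453 genes and unnamed probes with a threshold of 0.05. The fit was tested on simulated data. For 3 arrays against 3, the smallest exact two-sided p is 0.1. Names and promoters come from RefSeq's GRCm38.p6 tables. The markers and lists were chosen with earlier results of these data known. Named are the 10 markers, Gadd45a, Ing1, up to 4 genes of each list with the smallest p in DKO against WT, genes of a list that passed, and the 3 genes most like each marker. Ebf1, Zfp521, Pdgfa and the mesothelial genes below the filter are named outside these rules. Each array holds separate mice, so p values measure the spread between pools.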

Additional observations from a re-analysis of the deposited data

How the results depend on the processing

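Alternatives tried were median centring, quantile normalization, normexp (offset of 50), the deposited log2 values, no filter or one on all 12 arrays, every probe, plain empirical Bayes, only the arrays compared, slide as a replicate block, leaving out each array and, added after the data were seen, the 3 arrays highest in muscle transcripts left out. Counted by brightest probe, the number of markers called for Ing1 loss was 1 under each of the alternatives except that last one, where it was 0, and ranged from 1 to 4 with an array left out. In DKO against Gadd45a-KO it was 2 when centred on the median, with the filter on all 12 arrays, with only the arrays compared and with the replicate block, 0 without the 3 muscle-high arrays, and 0 to 3 with an array left out, against 1. In DKO against WT it was 1 with the replicate block and 0 to 1 with an array left out, against 0. In the other comparisons it was 0 throughout. With every probe tested, counting a marker if any of its probes passed, the number was 2 for Ing1 loss and 3 for DKO against Gadd45a-KO. No called value changed sign.

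Same-numbered arrays, which share a slide, correlated in their deviations at -0.276 to 0.424 (median 0.122), and others at -0.359 to 0.311 (median -0.0985). By these medians the arrays of a slide were somewhat more alike, though the ranges overlapped. Deviations from a genotype's mean cancel over its arrays, so the medians depend on each other and are not separate evidence. The main fit left slide out, and slide as a block was tried only as an alternative. With that block 692 genes passed in DKO against WT, against 58 without it. Over all genes the count in DKO against WT, 58, ran from 1 to 692 over the alternatives and from 1 to 3449 with an array left out. For Ing1 loss it was 5221 and ran from 1 to 6531 and from 2102 to 7222, and for DKO against Gadd45a-KO it was 4894 and ran from 1 to 6259 and from 558 to 7161. For Ing1 loss 2075 genes were higher and 3146 lower, against 2877 and 1787 when centred on the median and 2461 and 2494 by quantiles; for DKO against Gadd45a-KO 2009 were higher and 2885 lower, against 2551 and 1794 when centred on the median. With normexp the all-gene median was -0.145 for Ing1-KO against WT and -0.119 for DKO against WT. The cause was not tested. With 3 arrays a genotype, the number of arrays limits the precision.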
